A study of Mus musculus with 4 samples.

Results

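The peaks described here were called for a Mef2D isoform but lay outside the table of regions in which all libraries of the study were read. They were chosen by position: a peak in the list of an isoform was taken when it shared no base with any of the 19749 combined regions. Lists and table come from the same libraries, so the choice rests on their signal, and the values below describe the chosen peaks. This held for 454 of 8872 Mef2Da1 peaks (5.12%, exact Clopper-Pearson 95% interval 4.67 to 5.60) and for 687 of 10105 Mef2Da2 peaks (6.8%, 6.32 to 7.31), 1141 of 18977 listed peaks in all. They are called outside peaks below, and the peaks within a combined region are called inside peaks. The intervals reflect counting error alone and take peaks to be independent.

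The study used chromatin immunoprecipitation with sequencing (ChIP-seq) in C2C12, a mouse myoblast line whose cells fuse into myotubes in medium with little serum. All libraries came from cells differentiated for 5 days in horse serum with insulin and transferrin. Endogenous Mef2Da1 and Mef2Da2 were each precipitated with an antibody against a peptide of that isoform, and the controls, Mef2Da1-BLOCK and Mef2Da2-BLOCK, used the same antibodies blocked with their peptide. There were 4 groups with 1 library each, so no value has a replicate error, no test was made, and comparisons are descriptions of these libraries. The line stands for muscle cells in culture, and its chromosome copy number was not given in the labels. Sequencing depth was unknown.

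Mef2D belongs to the MEF2 family, transcription factors with a MADS-box domain that bind A/T-rich sites and act with myogenic regulators such as MyoD at muscle genes. The isoforms arise from a choice between mutually exclusive exons next to the DNA-binding part. The Mef2Da1 form is found in many tissues, whereas the Mef2Da2 form appears when muscle cells differentiate. A peak is a stretch of the genome where fragments pulled down with the antibody pile up. Its height is the coverage at the highest point, a whole number without scaling to depth, and the −log10 p is the authors' score of how far that height stands above what their caller took as background.

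The division between inside and outside peaks was complete. Every inside peak lay wholly within 1 region (8418 of 8418 for Mef2Da1 and 9418 of 9418 for Mef2Da2), and no outside peak came nearer than 36 bp to a region. Just on the outer side of the rule stood the Mef2Da1 peak at chr8:87513725-87514111 (build mm9, counted from 1, as all peaks below), with a height of 54 and a gap of 36 bp. The Mef2Da1 peak at chr17:12952489-12953048 followed, with a height of 128 and a gap of 44 bp, and the one at chr10:114770608-114770942, with a height of 45 and a gap of 45 bp. The nearest outside peaks of Mef2Da2 were at chr17:12952512-12953079 (height 102, gap 67 bp), chr8:86504128-86504584 (height 223, gap 93 bp) and chr13:32771540-32771806 (height 43, gap 132 bp). Among them are both weak and strong peaks, and the chromosome 17 place is the same for both isoforms. On the inner side, the peaks with the fewest shared bases were the shortest inside peaks. These were chr5:15122187-15122398, chr3:107950831-107951043 and chr9:90009454-90009668 for Mef2Da1, with 212, 213 and 215 bp in the table and heights of 46, 44 and 51. For Mef2Da2 they were chr14:76552459-76552657, chr15:41525338-41525536 and chr15:50658215-50658413, each with 199 bp in the table and heights of 40, 38 and 36. No peak was cut by the edge of a region.

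The outside peaks included strong sites of both isoforms. The strongest Mef2Da1 peak outside the table, at chr15:96932522-96933021, had a height of 218 and a −log10 p of 39.0, rank 53 in its list. The Mef2Da2 peak over it had a height of 201. A combined region lay 162 bp away, where Mef2Da1 reached 54 and Mef2Da2 64, with blocked controls at 29 and 13. The table thus held a lower neighbour of this place and not the place itself.

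At chr2:33058801-33059305 the height was 210 in the Mef2Da1 library and 157 in the Mef2Da2 library. The nearest region, 1155 bp away, had heights of 34 and 29, with 20 and 14 in the blocked controls. At chr18:4994349-4995021 the Mef2Da1 height was 179 and the Mef2Da2 height 353, and the nearest region lay 6342 bp from the Mef2Da1 peak. This was the pair of overlapping outside peaks with the lowest sum of ranks in both lists. At chr8:77562083-77562803 the heights were 172 and 169, nearly the same in both libraries. At chr1:133328420-133328866 they were 197 for Mef2Da1 and 135 for Mef2Da2. Each of the 5 strongest Mef2Da1 outside peaks had a Mef2Da2 peak over it. So did 846 of 855 inside peaks (98.9%) in the strongest 10% of that list by −log10 p.

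The strongest Mef2Da2 outside peaks were higher, and 3 of the 5 had no Mef2Da1 peak over them. In the strongest 10% of the Mef2Da2 list a Mef2Da1 peak overlapped 846 of 965 inside peaks (87.7%) and 17 of 45 outside peaks (37.8%). The first of the 5, chr4:42966519-42967112, had a height of 402 and a −log10 p of 74.9, rank 12 among 10105. A combined region lay 662 bp away with heights of 31 for Mef2Da1 and 25 for Mef2Da2, and the nearest Mef2Da1 peak 3431 bp away. The second, chr8:97733753-97734310, had a height of 330 and rank 22, with the nearest Mef2Da1 peak 15785 bp away. At chr4:94718663-94719141 the Mef2Da2 height was 295, and a Mef2Da1 peak lay 132 bp from it without touching it. The other two lay over Mef2Da1 peaks. One was the chromosome 18 place above (Mef2Da2 height 353), and the other chr2:160446688-160447415, where Mef2Da2 reached 250 and Mef2Da1 155. By the sum of ranks that pair came after the chromosome 18 place and the chromosome 15 place with heights of 218 and 201. What the blocked controls did at any of these places could not be read, since control heights exist in the table alone.

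Most outside peaks were lower than the median of their list. The median height was 53 for Mef2Da1 (quartiles 47 and 67, range 42 to 218) against 58 for its inside peaks (quartiles 50 and 73). For Mef2Da2 it was 46 (quartiles 41 and 59, range 34 to 402) against 57 (quartiles 45 and 81). Median −log10 p was 7.46 against 8.11 for Mef2Da1, and 7.40 against 9.41 for Mef2Da2. Of the Mef2Da1 outside peaks, 40.5% (95% interval 36.0 to 45.2) reached the median height of their list, 57. Of the Mef2Da2 outside peaks, 29.7% (26.3 to 33.3) reached theirs, 56.

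**Figure D1:**
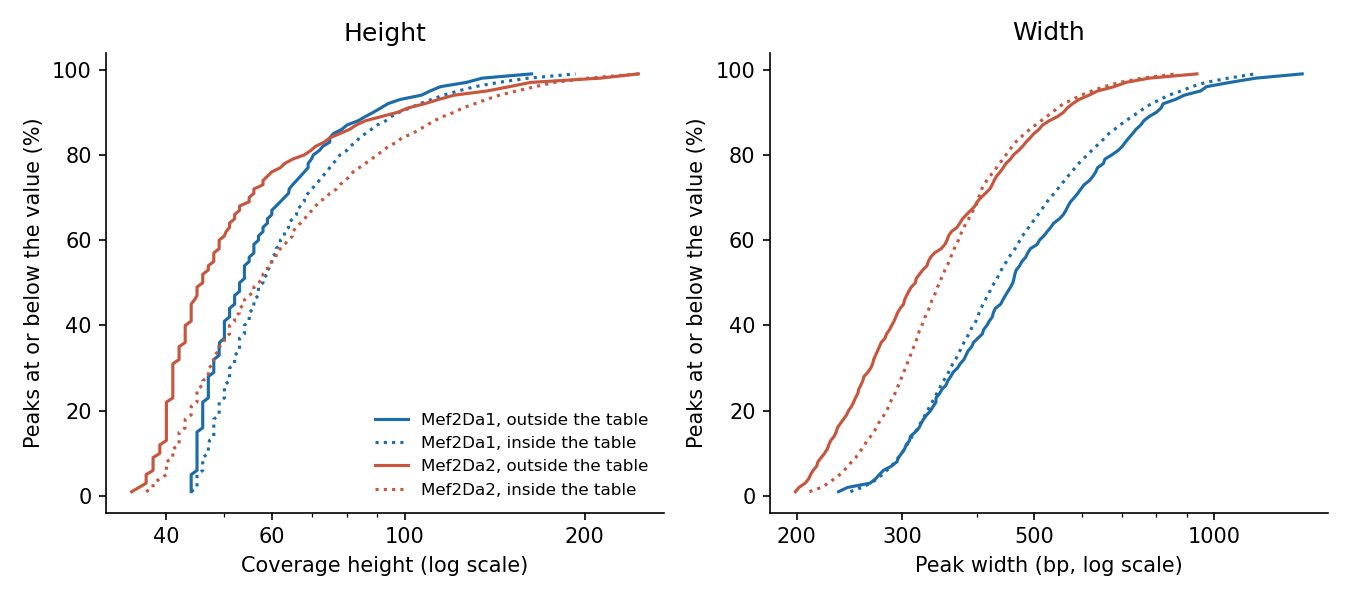
Percentiles 1 to 99 of coverage height (left, log axis, not scaled to depth) and of peak width in bp (right, log axis) for outside peaks (solid) and inside peaks (dotted) of Mef2Da1 (blue) and Mef2Da2 (red). In the left panel the outside curves lie left of the inside curves at the medians (53 against 58 and 46 against 57), and in the right panel the Mef2Da2 curves cross, with outside quartiles of 254 and 432 bp against 294 and 421 bp inside.

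The weak end of the lists carried more of them, above all for Mef2Da2. In the weakest 10% of the Mef2Da2 list by −log10 p, 164 of 1011 peaks were outside (16.2%, 14.0 to 18.6), and in the strongest 10% 45 of 1010 (4.46%, 3.27 to 5.92). The Mef2Da1 shares were 78 of 888 (8.78%, 7.00 to 10.8) in the weakest 10% and 32 of 887 (3.61%, 2.48 to 5.05) in the strongest. In the 5 stronger of 10 equal parts of each list the share lay between 3.26% and 4.46% for Mef2Da2 and between 3.49% and 4.85% for Mef2Da1. Few outside peaks scored below the lowest joint score in the table. The lowest sum of the −log10 p values of both isoforms in any combined region was 6.06, and 443 of 454 Mef2Da1 and 679 of 687 Mef2Da2 outside peaks exceeded that sum with their own value alone. Each list itself began at 6.01, for inside and outside peaks alike. The lists' own lower limit thus largely fixed these counts, which say nothing particular about outside peaks. Inside peaks were not counted in this way. Scores of the table were given per region and those of the lists per peak, so they match only roughly.

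**Figure D2:**
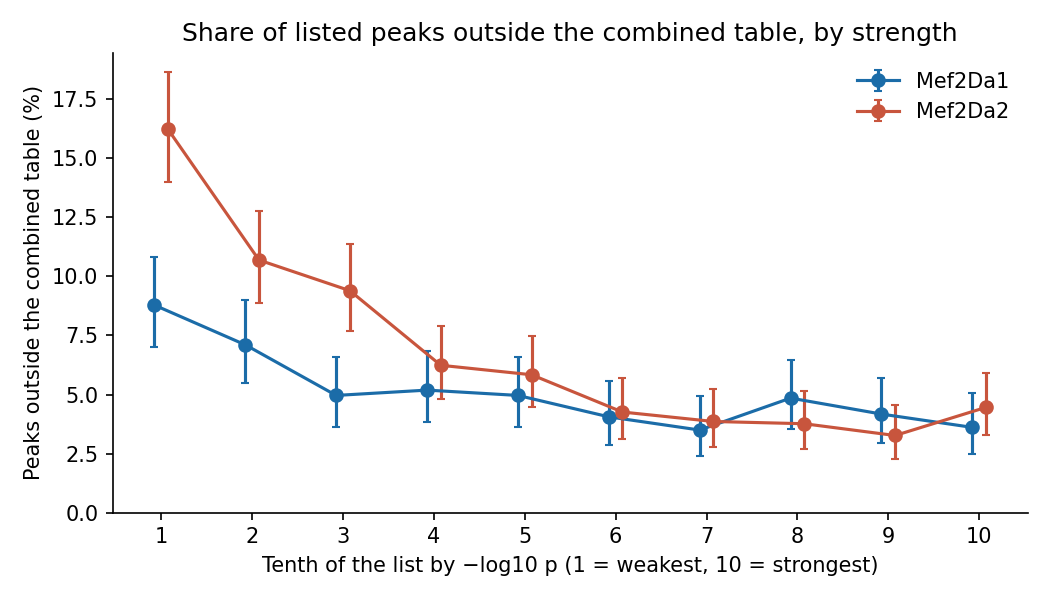
Share of listed peaks that lay outside the combined table (y axis, percent) for 10 equal parts of each list ranked by the authors' −log10 p (x axis, 1 weakest to 10 strongest). Points are shares and bars are exact 95% binomial intervals; Mef2Da2 runs from 16.2% in the weakest part to 4.46% in the strongest, and Mef2Da1 from 8.78% to 3.61%.

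Near the lower limit of each list, the authors' score was alike in outside and inside peaks of equal height. Among Mef2Da1 peaks of height 45, the most frequent height of outside peaks, −log10 p ran from 6.05 to 6.52 with a median of 6.15 both in 48 outside and in 334 inside peaks. Among Mef2Da2 peaks of height 40, the median was 6.12 in 69 outside and in 351 inside peaks, with ranges of 6.01 to 6.80 and 6.01 to 7.29. At each of these heights the score took at most 8 distinct values, so the likeness was largely given beforehand. Greater heights were not compared in this way.

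Most outside peaks had no listed peak of the other isoform over them. A Mef2Da2 peak overlapped 150 of 454 Mef2Da1 outside peaks (33.0%, 28.7 to 37.6), where the share over the whole list was 61.6%. A Mef2Da1 peak overlapped 154 of 687 Mef2Da2 outside peaks (22.4%, 19.3 to 25.7), where the share over the whole list was 54.6%. In each of these cases the overlapping peak was itself an outside peak, and none lay in the table. This follows from the division above, since a peak that overlaps an inside peak shares bases with its region. Counted as places, the outside peaks made 987 loci, of which 150 had peaks of both isoforms, 304 of Mef2Da1 only and 533 of Mef2Da2 only.

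The share with overlap was below that of inside peaks in each of the 10 parts of both lists by −log10 p. In the weakest 10%, 2 of 78 Mef2Da1 outside peaks (2.56%) overlapped a Mef2Da2 peak, against 274 of 810 inside peaks (33.8%). In the strongest 10% it was 30 of 32 (93.8%) against 846 of 855 (98.9%). For Mef2Da2 the weakest 10% had 7 of 164 (4.27%) against 289 of 847 (34.1%), and the strongest 10% 17 of 45 (37.8%) against 846 of 965 (87.7%). The Mef2Da2 outside peaks of the strongest 10% thus stood without a listed Mef2Da1 peak in 28 of 45 cases. Of these 28, 14 lay on chromosomes 8 or 15, a share like that of all 45 (22, or 48.9%). Mef2Da1 coverage at the 28 places could not be read, since they lie outside the table. These 28 had heights of 116 to 402 with a median of 154.5. In 6 of them a Mef2Da1 peak lay less than 1000 bp away, and the median gap to a Mef2Da1 peak was 6224 bp. Among the 119 inside peaks of the strongest 10% of Mef2Da2 without overlap, that median gap was 28205 bp, and 8 had a Mef2Da1 peak less than 1000 bp away.

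Where both isoforms had an outside peak, median heights lay above the medians of the lists, 57 for Mef2Da1 and 56 for Mef2Da2. The 150 Mef2Da1 outside peaks with overlap had a median height of 70 (quartiles 58.3 and 91.8), above the 65 of 5317 inside peaks with overlap. The 304 without overlap had a median of 49, below the 51 of 3101 inside peaks without overlap. The lower height of Mef2Da1 outside peaks as a whole therefore held within peaks without overlap and turned around within peaks with overlap. For Mef2Da2 the medians were 59 against 66.5 with overlap and 44 against 49 without, lower outside the table in both classes.

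The overlapping outside peaks formed 154 pairs of 150 Mef2Da1 and 154 Mef2Da2 peaks, every overlap counted, whose middles were 36.5 bp apart at the median. Median heights in these pairs were 70.5 (Mef2Da1) and 59 (Mef2Da2). Mef2Da1 was the higher one in 108 pairs, Mef2Da2 in 42, and 4 were equal, with a median log2 ratio of Mef2Da1 to Mef2Da2 of 0.19 without scaling to depth. Inside the table there were 5373 such pairs, counted the same way, of 5317 Mef2Da1 and 5360 Mef2Da2 peaks. Mef2Da1 was higher in 2722 of them, Mef2Da2 in 2558, and the median log2 ratio was 0.02. Spearman's correlation between the paired heights was 0.72 over the 154 outside pairs and 0.56 over the inside pairs. Pairs are not replicates, and the peaks of a list share 1 library.

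**Figure D3:**
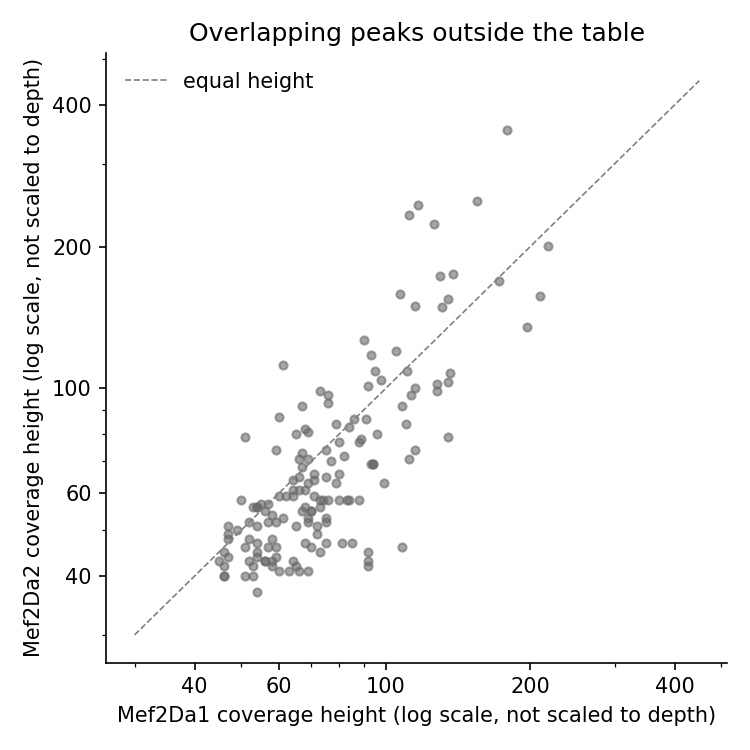
Coverage heights of the 154 pairs of overlapping outside peaks, Mef2Da1 on the x axis and Mef2Da2 on the y axis (log axes, not scaled to depth), with a dashed line of equal height. Each point is 1 pair; 108 lie below the line and 42 above it, and the point highest on the y axis is the chromosome 18 place with heights of 179 and 353.

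Widths moved apart in the lists. Mef2Da1 outside peaks were wider than inside peaks at the median (460 against 428.5 bp), with an upper quartile of 626.5 against 569 bp. Mef2Da2 outside peaks were narrower (316 against 347 bp), but their spread was larger on both sides, with quartiles of 254 and 432 bp against 294 and 421 bp. Among peaks with overlap, the outside ones were the wider in both lists, 542 against 444 bp for Mef2Da1 and 409.5 against 385 bp for Mef2Da2. The widest outside peak of Mef2Da1 was chr17:29230391-29232758, 2368 bp wide with a height of 92, over a Mef2Da2 peak of height 43. For Mef2Da2 it was chr6:91569480-91570764, 1285 bp wide with a height of 141 and no Mef2Da1 peak. The narrowest were chr8:19962989-19963196 for Mef2Da1 (208 bp, height 49) and chr2:107454969-107455155 for Mef2Da2 (187 bp, height 35).

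Chromosomes 8 and 15 held the most outside peaks for their number of listed peaks. On chromosome 8, 54 of 537 Mef2Da1 peaks (10.1%, 7.64 to 12.9) and 78 of 600 Mef2Da2 peaks (13.0%, 10.4 to 16.0) were outside. On chromosome 15 it was 63 of 707 (8.91%, 6.92 to 11.3) and 107 of 774 (13.8%, 11.5 to 16.5). Over the other chromosomes together the shares were 4.42% (3.97 to 4.90) and 5.75% (5.27 to 6.26). Chromosome 7 had the lowest Mef2Da1 share, 4 of 332 (1.20%, 0.329 to 3.06), and chromosome 9 the lowest Mef2Da2 share, 14 of 507 (2.76%, 1.52 to 4.59).

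On these 2 chromosomes the outside peaks were not as low as elsewhere. On chromosome 8 the median Mef2Da1 height was 64 outside and 59 inside, and on chromosome 15 it was 59 in both. Mef2Da2 had 51 against 55 on chromosome 8 and 56 against 57 on chromosome 15. Without chromosomes 8 and 15 the median of outside peaks was 7 below that of inside peaks for Mef2Da1 and 13 below for Mef2Da2. Of the outside peaks in the strongest 10%, 16 of 32 for Mef2Da1 (50.0%, 31.9 to 68.1) and 22 of 45 for Mef2Da2 (48.9%, 33.7 to 64.2) lay there. Of the inside peaks in the strongest 10% it was 121 of 855 (14.2%) and 130 of 965 (13.5%). Copy number of these chromosomes in the line was not tested.

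**Figure D4:**
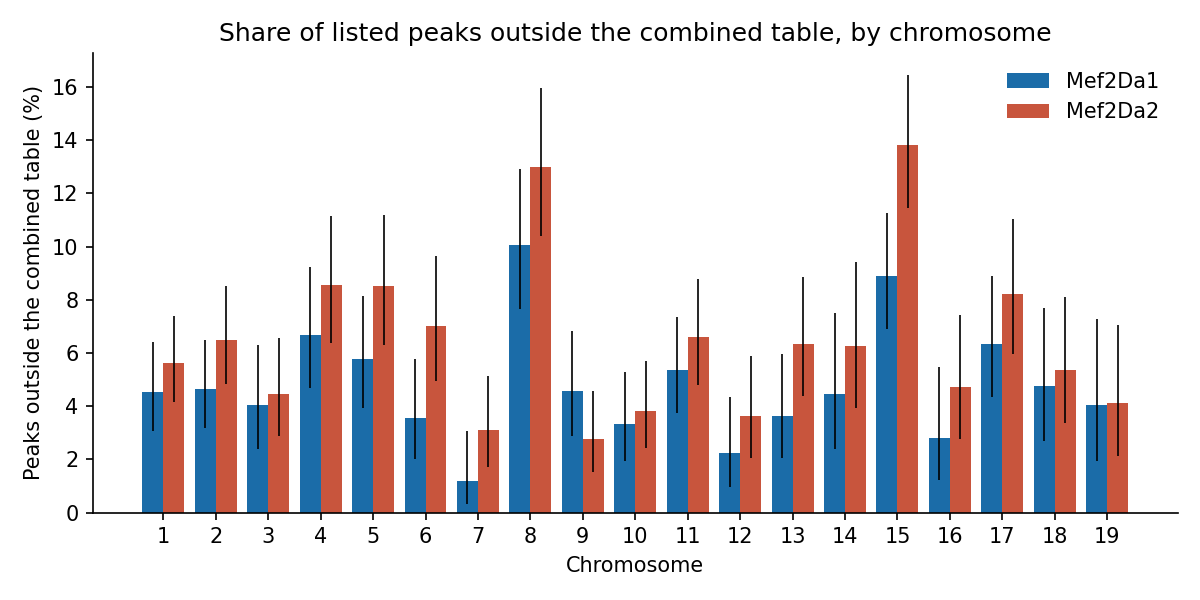
Share of listed peaks outside the combined table (y axis, percent) for each chromosome (x axis), Mef2Da1 in blue and Mef2Da2 in red. Bars are shares and lines are exact 95% binomial intervals; chromosomes 8 (10.1% and 13.0%) and 15 (8.91% and 13.8%) stand above the rest.

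Most outside peaks stood singly, and some lay beside each other. Another outside peak of the same list was less than 10 kb away from 44 of 454 Mef2Da1 outside peaks (9.69%, 7.13 to 12.8) and from 100 of 687 Mef2Da2 outside peaks (14.6%, 12.0 to 17.4). Of the inside peaks, 1.65% and 2.54% had an outside peak that near. Any peak of the same list was less than 10 kb away from 134 Mef2Da1 outside peaks (29.5%) and 252 Mef2Da2 outside peaks (36.7%), where the shares over the whole lists were 34.2% and 35.5%. Neighbouring peaks as such were therefore about as frequent as elsewhere in the lists for Mef2Da2 and somewhat fewer for Mef2Da1. Runs of at least 3 outside peaks with no inside peak of the list between them held 35 Mef2Da1 peaks in 9 runs and 89 Mef2Da2 peaks in 19 runs, whereas 359 and 480 outside peaks stood singly.

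The longest runs of both isoforms began at the same place on chromosome 4, and the Mef2Da2 run reached farther. The Mef2Da1 run held 8 peaks in chr4:144829297-145164425, with heights of 65, 57, 59, 62, 49, 50, 44 and 60 in order of position. The Mef2Da2 run held 14 peaks in chr4:144829462-146807495, with heights of 34 to 51 and a median of 42. Of these 14 peaks, 7 lay within the span of the Mef2Da1 run. The Mef2Da2 heights were all below the list's median of 56, while the Mef2Da1 heights lay on either side of their list's median of 57. In all, 2 peaks in each run overlapped a peak of the other isoform. The Mef2Da2 run spanned 1978 kb, in which the table had 4 regions.

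A second stretch with a run in both lists was on chromosome 8. There 4 Mef2Da1 peaks (heights 49, 67, 56 and 66) lay in chr8:19962989-22136816 and 7 Mef2Da2 peaks (heights 38 to 48) in chr8:19893199-22136462. In each run 1 peak overlapped a peak of the other isoform, and that overlap was 10 bp. The table had 1 region in each of these spans. The Mef2Da1 run at chr1:90129675-90184940 held 5 peaks with heights of 47 to 54 and had no listed Mef2Da2 peak in it. The Mef2Da2 run at chr5:14249975-15030324 held 8 peaks with heights of 40 to 52, and 7 combined regions lay between them.

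Among the named runs, the one on chromosome 15 had the shortest span and the highest peak. In chr15:76028538-76038363, a span of 10 kb, 7 Mef2Da2 outside peaks had heights of 53, 43, 40, 197, 52, 57 and 97 in order of position. The highest was chr15:76030835-76031564, with a −log10 p of 35.6 and no Mef2Da1 peak over it. The last of the 7 overlapped the 1 Mef2Da1 peak in the span, an outside peak too. No combined region lay within the span.

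Outside peaks were somewhat farther from combined regions than inside peaks were from the next region. The median gap to the nearest region was 17474 bp for Mef2Da1 (quartiles 4042 and 54150) and 12878 bp for Mef2Da2 (3012 and 44758). From inside peaks to the nearest region other than their own it was 9076 and 10384 bp. A region lay less than 1000 bp from 52 of 454 Mef2Da1 outside peaks (11.5%, 8.67 to 14.7) and from 82 of 687 Mef2Da2 outside peaks (11.9%, 9.61 to 14.6). For inside peaks the shares were 14.9% and 12.7%, so most outside peaks, like most inside peaks, had no other region that near. At the far end, 66 Mef2Da1 and 79 Mef2Da2 outside peaks had no region within 100 kb. For 594 of 8418 and 776 of 9418 inside peaks there was no other region that near. A region thus lay less than 100 kb from 85.5% and 88.5% of outside peaks, against 92.9% and 91.8% of inside peaks.

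**Figure D5:**
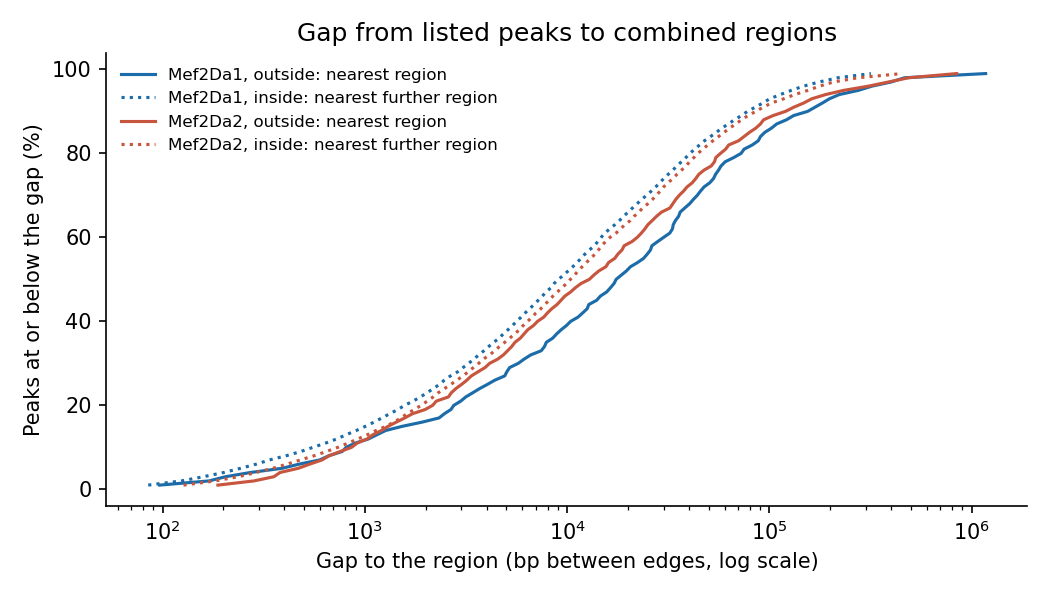
Percentiles 1 to 99 of the gap in bp between edges (x axis, log) from outside peaks to the nearest combined region (solid) and from inside peaks to the nearest region other than their own (dotted), Mef2Da1 in blue and Mef2Da2 in red. At the medians the Mef2Da1 outside curve lies farthest right (17474 bp, against 9076 bp for its inside peaks). Toward the lower end the outside curves of the isoforms cross. At percentile 95 each outside curve lies right of its inside curve (274933 against 128291 bp for Mef2Da1, 232833 against 154935 bp for Mef2Da2).

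The most distant place was again common to both isoforms. At chr4:21654567-21655083 Mef2Da1 had a height of 59, and at chr4:21654665-21654967 Mef2Da2 had a height of 46, and the nearest region was 2017990 bp from the Mef2Da1 peak. The next for Mef2Da1 were chr17:93808739-93809039 (height 45) and chr17:60599242-60599509 (height 42), over 1 Mb from a region and without a Mef2Da2 peak. For Mef2Da2 they were chr2:82058086-82058295 (height 41) and chr2:85970553-85970764 (height 37), without a Mef2Da1 peak. Each of these peaks but the Mef2Da1 peak of the first place was below the median height of its list.

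The share of outside peaks differed with the number of regions around a peak, and not in 1 direction. With no region within 100 kb, 66 of 660 Mef2Da1 peaks (10.0%, 7.82 to 12.5) and 79 of 855 Mef2Da2 peaks (9.24%, 7.38 to 11.4) were outside. With 1 region the shares were 6.65% (5.16 to 8.41) and 8.28% (6.76 to 10.0), and with 2 to 4 regions 5.22% (4.44 to 6.10) and 6.72% (5.90 to 7.63). With 5 to 9 regions it was 3.27% (2.66 to 3.97) and 4.88% (4.17 to 5.67). With 10 or more it was 5.53% (4.38 to 6.87) and 8.76% (7.35 to 10.3). In both lists the share was lowest with 5 to 9 regions.

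The blocked antibodies could be read only at regions neighbouring the outside peaks. Beside inside peaks, the nearest region other than their own was taken. At the nearest region less than 10 kb away, Mef2Da1-BLOCK had a median height of 21 (quartiles 17 and 27, 178 outside peaks) against 19 (15 and 24) beside 4357 inside peaks. It reached 30 or more beside 12.9% (8.37 to 18.8) of the outside and 9.34% (8.49 to 10.2) of the inside peaks. Mef2Da2-BLOCK had a median of 13 (10 and 17, 319 outside peaks) against 12 (9 and 16) beside 4628 inside peaks. Without chromosomes 8 and 15 the medians were 20 against 19 and 12 against 12. Mef2Da1-BLOCK then reached 30 or more beside 11.6% (6.47 to 18.7) of the outside and 7.64% (6.80 to 8.54) of the inside peaks. The part of blocked-control coverage in the make-up of the table was not tested.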

How the data were processed

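Mef2Da1 and Mef2Da2 peak lists (1 library each) and a combined table of all 4 libraries were used. The submitters' processing notes list BWA 0.5.9 and the build mm9. The peak caller, its filters and how the combined regions were made are not stated in the sources used here. The deposited signal is a coverage height in whole numbers, not scaled to depth. The deposited −log10 p is given per peak or region. For the blocked libraries the deposited −log10 p column has values below 0, was treated as a score and was not used. Table columns were assigned to samples by the file names of the peak lists.

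From these files, peaks were joined to regions on the same chromosome at 1 shared bp, with lists read as counted from 0 and printed as counted from 1. Gaps run between edges. Shares have exact Clopper-Pearson 95% intervals. Depth was unknown, so heights have no interval. No count test, pseudocount or p-value of this work was used. Named were the 5 strongest outside peaks by −log10 p of each list, the 3 strongest pairs, the 3 nearest and 3 farthest, 3 inside peaks with the fewest shared bases, the widest, the narrowest and the 3 longest runs (4 for Mef2Da2, at a tie). Members and rules were chosen with earlier results of these data known. Code was tested on simulated lists. Alternatives on the join, strength, chromosomes and overlap were run. No genome or annotation of mm9 was used here, so no gene, motif or sequence is given. Tools were pandas 2.3.3, NumPy 2.4.6 and SciPy 1.17.1 under Python 3.11.15, with Matplotlib 3.10.9 for figures.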

Additional observations from a re-analysis of the deposited data

Results flagged for a closer look

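The difference in median width between outside and inside peaks had opposite signs in the isoforms' lists: 31.5 bp for Mef2Da1 and −31 bp for Mef2Da2, each from 1 library. The difference between the isoforms was not tested. Among peaks that overlapped a peak of the other isoform the outside peaks were wider in both lists, by 98 and 24.5 bp. Among peaks without such an overlap the signs stayed opposite, at 16.5 bp for Mef2Da1 and −19 bp for Mef2Da2.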

How the results depend on the processing

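Of 66 alternative values for 18 results, 38 stayed within the bounds set (1.5 times for counts, the 95% interval for shares and medians), 22 moved and 6 reversed. Splits by overlap within both classes and the removal of chromosomes 8 and 15 were added after seeing the data. Counting a region within 100 bp, requiring 50% of the peak inside, or counting list starts from 1 left the numbers at 449 to 454 for Mef2Da1 and 685 to 687 for Mef2Da2. The 50% rule and the count from 1 could not change a number. Every inside peak lay wholly within a region, and no outside peak came nearer than 36 bp. Their values are among the 38 that stayed. With regions within 1000 bp counted, 4.53% and 5.99% remained outside. Among peaks at or above the median −log10 p, 180 (4.05%) and 199 (3.90%) were outside, from fewer peaks by construction.

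Against inside peaks without overlap, the median difference of Mef2Da1 outside peaks reversed to 2 in height and 0.46 in −log10 p and moved to 59 bp in width. For Mef2Da2 it was −3, −0.61 and, reversed, 6 bp. With overlap in both classes, the Mef2Da1 values reversed to 5 and 1.12 with 98 bp in width, and the Mef2Da2 values were −7.5, −1.06 and, reversed, 24.5 bp. Without overlap in both classes they were −2 and −0.18 for Mef2Da1 and −5 and −0.98 for Mef2Da2. Without chromosomes 8 and 15 they were −7 and −0.98 for Mef2Da1, and −13, −2.28 and −55 bp for Mef2Da2. Without chromosome 15 alone, the Mef2Da2 width difference was −45.5 bp. The cause of these shifts was not tested. No paired analysis was possible because each group had 1 library and no result came from a test. Unknown depth limits every comparison of heights between isoforms.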
